A study of Homo sapiens with 9 samples.

Results

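The 10 genes described here encode actins and tubulins, the building blocks of the cytoskeleton: the actins ACTB and ACTG1, the alpha-tubulins TUBA1A, TUBA1B, TUBA1C and TUBA4A, and the beta-tubulins TUBB, TUBB2A, TUBB4B and TUBB6. They were taken by name from a table of 27800 gene symbols, and were chosen with earlier results of these data known. All 10 reached the level required for testing, as did 14144 genes in the table. RNA sequencing had been carried out on PANC-1, a human pancreatic tumour cell line, in 3 groups of 3 libraries collected at day 0, day 2 and day 14 of combined nutrient and oxygen deprivation. The medium in the labels is DMEM with glucose at 2.5 mM, amino acids at 20% of their usual concentration and fetal calf serum at 0.5%, and no further treatment was given. The labels word this medium identically for all 9 samples, so whether the day 0 cells had grown in it is not known. The oxygen level is not given in the sources used here, and the column names carry the tag WT, which the labels do not explain. No culture kept undeprived for 2 or 14 days was analysed here, so days of deprivation and days in culture cannot be told apart. The labels do not say whether the 3 replicates of a day came from separate cultures, so every p-value here reflects the spread among these libraries alone, which may be technical. Levels are given in TPM, the usual length-corrected unit of transcript abundance, which sums to 1000000 in each library.

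Actin monomers assemble into filaments that shape the cell cortex, stress fibres and protrusions, and ACTB and ACTG1 encode the cytoplasmic forms, beta-actin and gamma-actin. Tubulin is a dimer of an alpha and a beta subunit, and the dimers build microtubules, the tracks for intracellular transport and the fibres of the mitotic spindle. Both proteins need the cytosolic chaperonin to fold, cells adjust tubulin mRNA to the pool of free dimers, and transcription of many actin genes follows the actin monomer pool through SRF and its cofactors. Because these genes are abundant in nearly all cells, several of them serve as reference genes to which other mRNA measurements are normalised.

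TUBA1B, TUBA1A and TUBA1C follow each other as neighbouring protein-coding genes on chromosome 12 in the RefSeq table for GRCh38.p14. TUBB2A and TUBB2B are likewise neighbours on chromosome 6. Upstream sequences of these 5 genes and of ACTG1 are shown because the calls below differed between neighbours with closely related products, as they did between ACTG1 and ACTB. The table held 9 of the 10 genes, all but ACTB. Each sequence is the 250 bases before the RefSeq transcription start, 5′ to 3′ on the gene's own strand. Capitals mark matches, on either strand, to the TATA box letters TATAA and to the related TATATA, to the CCAAT box, to the GC box letters GGGCGG, to the E-box-like core ACGTG, and to the serum response element known as the CArG box. The windows are TUBA1B chr12:49131396-49131645 (minus strand), TUBA1A chr12:49189081-49189330 (minus), TUBA1C chr12:49264832-49265081 (plus), TUBB2A chr6:3157545-3157794 (minus), TUBB2B chr6:3227654-3227903 (minus) and ACTG1 chr17:81512800-81513049 (minus).
TUBA1B: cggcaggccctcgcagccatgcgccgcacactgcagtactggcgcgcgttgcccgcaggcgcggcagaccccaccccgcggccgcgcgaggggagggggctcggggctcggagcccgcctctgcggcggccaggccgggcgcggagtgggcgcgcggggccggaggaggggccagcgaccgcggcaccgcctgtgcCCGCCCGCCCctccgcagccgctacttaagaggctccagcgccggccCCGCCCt
TUBA1A: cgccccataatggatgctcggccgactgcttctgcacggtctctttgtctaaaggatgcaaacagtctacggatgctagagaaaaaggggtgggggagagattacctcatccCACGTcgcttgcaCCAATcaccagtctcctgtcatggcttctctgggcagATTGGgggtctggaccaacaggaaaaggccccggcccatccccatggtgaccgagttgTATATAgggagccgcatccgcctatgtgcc
TUBA1C: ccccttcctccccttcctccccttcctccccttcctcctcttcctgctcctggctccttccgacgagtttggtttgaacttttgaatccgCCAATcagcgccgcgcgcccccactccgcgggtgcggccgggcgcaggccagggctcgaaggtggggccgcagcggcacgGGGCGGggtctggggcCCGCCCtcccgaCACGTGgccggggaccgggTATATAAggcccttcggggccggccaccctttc
TUBB2A: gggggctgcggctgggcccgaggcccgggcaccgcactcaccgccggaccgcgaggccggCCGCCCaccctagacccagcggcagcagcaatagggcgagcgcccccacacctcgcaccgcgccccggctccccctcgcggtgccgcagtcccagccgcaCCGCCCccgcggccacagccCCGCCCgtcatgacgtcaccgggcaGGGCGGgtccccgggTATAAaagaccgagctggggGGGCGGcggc
TUBB2B: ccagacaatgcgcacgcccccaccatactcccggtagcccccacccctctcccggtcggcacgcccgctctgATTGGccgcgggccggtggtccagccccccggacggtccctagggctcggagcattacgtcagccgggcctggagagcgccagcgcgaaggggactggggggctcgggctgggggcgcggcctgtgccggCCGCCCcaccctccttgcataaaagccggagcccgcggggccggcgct
ACTG1: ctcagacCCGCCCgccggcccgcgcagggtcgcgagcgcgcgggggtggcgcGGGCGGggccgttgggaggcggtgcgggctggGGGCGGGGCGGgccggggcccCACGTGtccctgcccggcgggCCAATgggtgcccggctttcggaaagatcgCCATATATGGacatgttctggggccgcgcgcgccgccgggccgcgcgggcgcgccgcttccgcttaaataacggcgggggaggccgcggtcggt

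The CArG box was matched in 1 of the 9 windows, that of ACTG1, from base -94 to -85 counted from the start site. Of 35116 windows of the same length in the table, 1.16% held such a match. TATATA was matched in TUBA1A, TUBA1C and TUBB4B, and in 3.73% of all windows. The shorter TATAA, which overlaps it in TUBA1C and TUBB4B, was matched in 4 of the 9 and in 18.9% of all windows. CCAAT was matched in 6 of the 9 against 32.0% of all windows, GGGCGG in 7 against 42.6%, and ACGTG in 3 against 18.5%. TUBA1B, in contrast to its neighbours TUBA1A and TUBA1C, had matches to GGGCGG alone among the motifs searched. These matches describe letters in a window and show no binding.

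Closely related copies limit what a TPM value can be assigned to. Of the 31-base words in TUBA1B transcripts of GENCODE, 37.6% also occurred in TUBA1A, and 22.8% of those of TUBA1C occurred in TUBA1B. For TUBB2A, 63.7% occurred in TUBB2B. For ACTB, ACTG1 and TUBB, 9.0%, 5.0% and 1.7% were shared with transcripts of other protein-coding genes, and 19.3%, 14.6% and 32.9% with any other gene, pseudogenes and non-coding genes included. The values of TUBA1A, TUBA1B, TUBA1C, TUBB2A and TUBB2B are therefore reported as uncertain to the extent that reads from shared stretches were divided by estimation. For TUBA4A, 16.9% were shared with its neighbour STK16, and for TUBB6, 19.4% with its neighbour AFG3L2.

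Of the 9 libraries, day 0 replicate 2 stood apart. Its log2 values correlated with the other day 0 libraries at r = 0.870 to 0.875 across genes, against 0.972 between those other two. In it 11363 genes reached 1 TPM, compared with 13016 to 13868 elsewhere, and 23.8% of its TPM belonged to ribosomal protein genes, compared with 10.2% to 14.8%. Epithelial keratins marked all libraries: KRT8, a keratin of simple epithelia, had a mean of 1870 ± 351 TPM at day 0 (SD, n = 3) and 501 ± 62.4 TPM at day 14. The 6 markers listed for the epithelial tumour cells include VIM, a mesenchymal intermediate filament gene, which had 2068 ± 687 TPM at day 0. The summed level of the 6 was 5513 to 5901 TPM at day 0, 2668 to 2980 at day 2 and 2039 to 2378 at day 14. The fibroblast marker DCN, the blood cell markers CD3E and MS4A1 and the neuron marker STMN2 were listed at 0 in all 9 libraries, and all 4 endothelial markers stayed under 1 TPM. The 5 fibroblast markers summed to 10.5 to 62.8, 56.6 to 74.0 and 8.66 to 13.2 TPM at the 3 days, nearly all from COL1A1. The 5 blood cell markers summed to 21.8 to 69.4 TPM, nearly all from CD68, and the 4 neuron markers to 2.70 to 7.94, 17.0 to 21.7 and 38.4 to 43.9 TPM, nearly all from SYT1. The part of these in the results below was not tested. In bulk RNA, fewer cells of a type and less RNA per cell cannot be told apart.

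At day 2, the main tubulin genes and ACTB were lower than at day 0, ACTG1 and TUBB2A did not pass the test, and the minor alpha-tubulins TUBA1A and TUBA4A were higher. In the limma test across all 14144 genes, 6 of the 10 genes fell (ACTB, TUBA1B, TUBA1C, TUBB, TUBB4B and TUBB6) and 2 rose (TUBA1A and TUBA4A). Among all tested genes 11.5% were called lower and 19.2% higher, 30.7% in all. The median log2 change of the 10 was -1.13, against 0.23 for all tested genes. The libraries of the 2 days did not overlap for 8 of the 10, and for 50.9% of all tested genes. At day 14, 5 of the 10 were lower than at day 0 (TUBA1B, TUBA1C, TUBB, TUBB4B and TUBB6) and 1, TUBA1A, was higher. The background at day 14 was 6.72% called lower and 27.5% higher, 34.2% in all, and the median change was -0.70 for the 10 against 0.44 for all. There, 7 of the 10 did not overlap, against 52.5% of all tested genes. The 2 comparisons share the day 0 libraries.

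How the table is scaled moved the median of all genes, but not the direction of any called gene among the 10. Under median-ratio scaling, which sets the typical gene to no change, the median log2 change of all tested genes was -0.045 at day 2 and -0.042 at day 14 in place of 0.23 and 0.44. The split for the 10 was then 1 higher and 6 lower at day 2, and 0 higher and 6 lower at day 14. Over all genes it was 17.8% higher and 19.9% lower at day 2, and 15.5% higher and 17.9% lower at day 14. Under quantile normalization the 10 split into 1 higher and 6 lower at day 2 and into 1 higher and 4 lower at day 14. Over all genes it was then 18.3% higher and 19.9% lower at day 2, and 17.1% and 17.4% at day 14. Every background given below is that of the main fit unless a scaling is named. The share of all genes called with libraries omitted or with other changes to the fit is not reported here. Relative to the median of all genes, the main log2 change at day 2 was -1.54 for ACTB, -2.24 for TUBA1B, -1.75 for TUBB and 1.77 for TUBA1A.

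**Figure D1:**
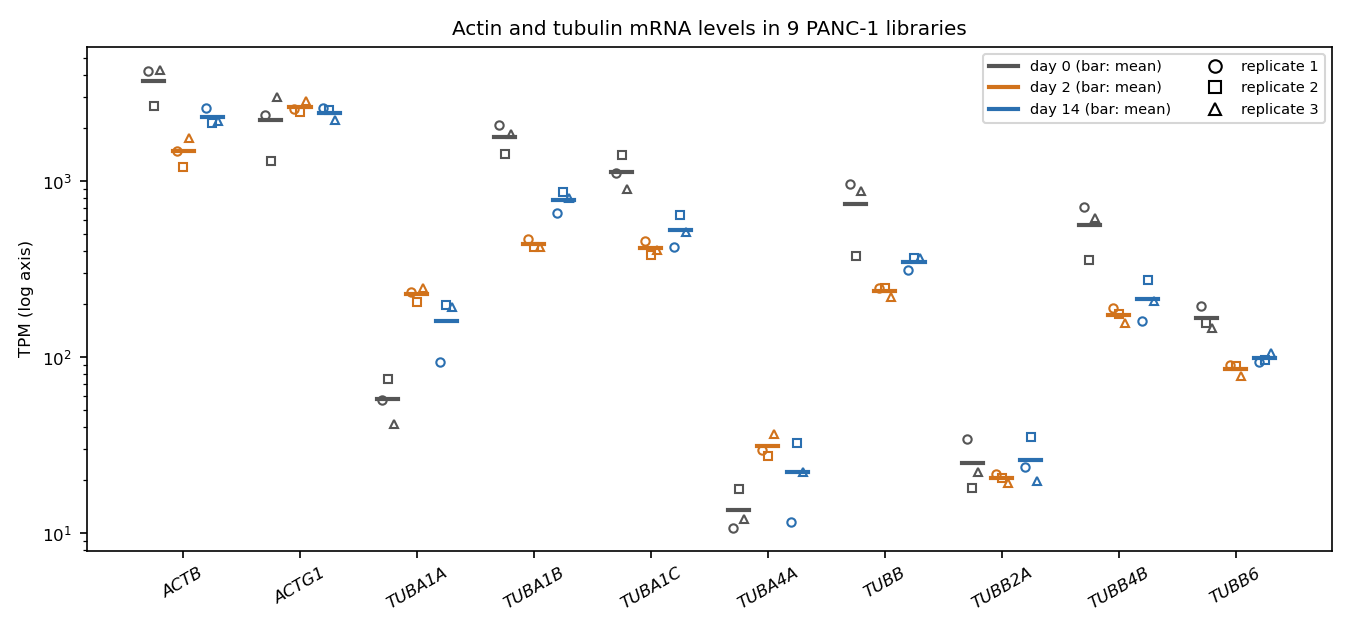
TPM on a log axis of each of the 10 genes in the 9 libraries, grouped by day (colour), with replicates as symbols and the mean of 3 libraries as a bar. TUBA1B lies at 1414 to 2080 TPM at day 0 and 420 to 468 TPM at day 2, while TUBA1A moves from 41.6 to 74.6 TPM up to 204 to 246 TPM.

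**Figure D2:**
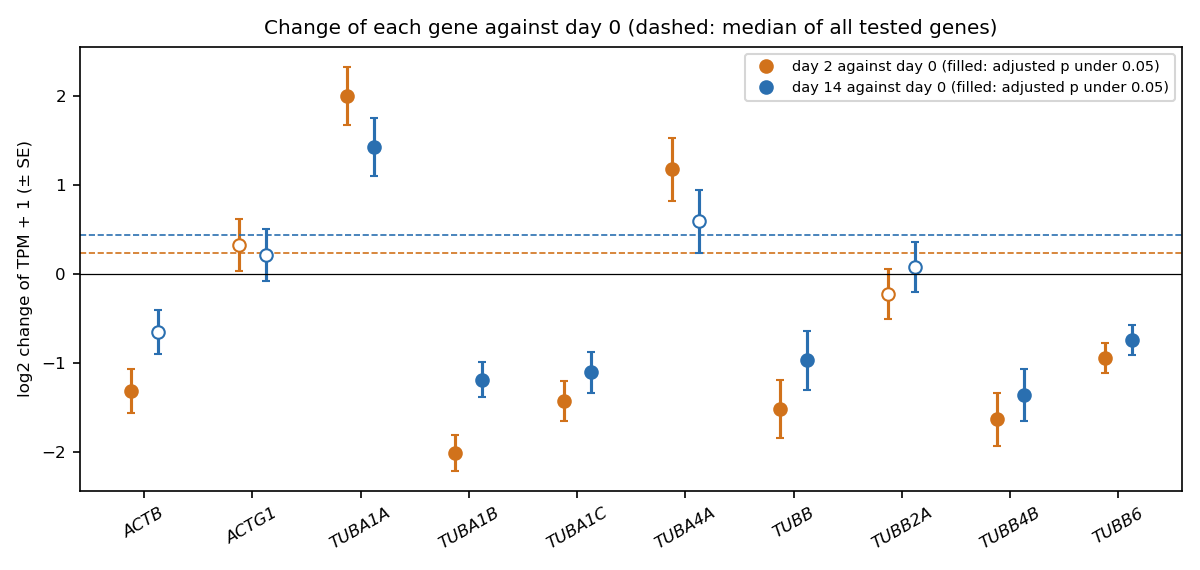
Log2 change of TPM + 1 against day 0 from limma, with its standard error, for each gene at day 2 and day 14. Filled points had an adjusted p under 0.05, and the dashed lines are the medians of all tested genes, 0.23 at day 2 and 0.44 at day 14.

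ACTB, which encodes beta-actin, was measured at 4205, 2658 and 4267 TPM in day 0 replicates 1 to 3. It was measured at 1478, 1197 and 1752 TPM at day 2 and at 2609, 2140 and 2191 TPM at day 14. Every day 2 and day 14 library lay below every day 0 library, with day 14 between the other days. The mean fell from 3710 ± 912 TPM (SD, n = 3) to 1476 ± 277 TPM at day 2. The log2 change was -1.31 (SE 0.25, limma adjusted p = 0.0052). At day 14 the mean was 2313 ± 257 TPM and the log2 change against day 0 was -0.65 (SE 0.25, limma adjusted p = 0.0694), which missed the threshold. With day 0 replicate 2 omitted, the lowest of its day, the day 14 change was -0.88 (limma adjusted p = 0.00448) and passed.

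ACTG1, which encodes gamma-actin, did not follow ACTB. Its levels were 2377, 1293 and 3002 TPM at day 0, then 2564, 2474 and 2853 TPM at day 2 and 2583, 2521 and 2209 TPM at day 14. All 3 days overlapped, and day 0 replicate 2 was the lowest library of all. The means were 2224 ± 865, 2630 ± 198 and 2438 ± 201 TPM (SD, n = 3). Its log2 change was 0.32 at day 2 (SE 0.29, limma adjusted p = 0.426) and 0.21 at day 14 (SE 0.29, limma adjusted p = 0.592). Omitting day 0 replicate 2 gave -0.025 and -0.14 (limma adjusted p = 0.894 and 0.442), so its sign depended on that library. It also depended on scaling, the day 14 value reaching -0.39 in the lowest of the alternatives.

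The balance of the 2 actin mRNAs differed between the days. The ratio of ACTB to ACTG1 was 1.77, 2.06 and 1.42 in the day 0 libraries. It was 0.577, 0.484 and 0.614 at day 2, and 1.01, 0.849 and 0.992 at day 14. The 3 days did not overlap, with day 2 lowest. The exact two-sided permutation test gave p = 0.1 for each pair of days, the smallest value that 3 libraries against 3 allow, and 0.1 after adjustment over 12 such tests. The pairs of genes in these 12 tests were chosen after their values had been seen.

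Among the alpha-tubulins, TUBA1B, a main alpha-tubulin gene of dividing cells, was at 2080, 1414 and 1845 TPM at day 0. It was at 468, 420 and 424 TPM at day 2 and at 658, 869 and 801 TPM at day 14. The 3 days did not overlap. The mean fell from 1780 ± 337 to 437 ± 26.6 TPM (SD, n = 3), 4.07-fold. The log2 change was -2.01 at day 2 (SE 0.20, limma adjusted p = 0.000361) and -1.19 at day 14 (SE 0.20, limma adjusted p = 0.00324), where the mean was 776 ± 107 TPM. Both calls held under all 21 alternatives.

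TUBA1C, the other abundant alpha-tubulin gene, was at 1103, 1394 and 894 TPM at day 0. It was at 454, 381 and 406 TPM at day 2 and at 421, 639 and 511 TPM at day 14. Both later days lay below day 0 and overlapped each other. The mean was 1130 ± 251, 414 ± 37.1 and 524 ± 109 TPM (SD, n = 3). It fell by 1.43 on the log2 scale at day 2 (SE 0.23, limma adjusted p = 0.00255) and by 1.11 at day 14 (SE 0.23, limma adjusted p = 0.0072), and both calls held under all 21 alternatives. In contrast to ACTB and TUBA1B, day 0 replicate 2 was the highest library for this gene.

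TUBA1A, an alpha-tubulin best known from developing neurons, changed in the opposite direction to its chromosomal neighbours. Its levels were 56.7, 74.6 and 41.6 TPM at day 0, then 232, 204 and 246 TPM at day 2 and 93.4, 198 and 191 TPM at day 14. Every later library lay above every day 0 library, and the 2 later days did not overlap. The mean rose from 57.7 ± 16.5 to 228 ± 21.5 TPM at day 2 (SD, n = 3), 3.95-fold, and was 161 ± 58.5 TPM at day 14. The log2 change was 2.00 at day 2 (SE 0.32, limma adjusted p = 0.0028), a call that held under all 21 alternatives. At day 14 it was 1.43 (SE 0.32, limma adjusted p = 0.0108), and under median-ratio scaling it was 0.83 and no longer passed (limma adjusted p = 0.208).

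TUBA4A, a little-expressed alpha-tubulin here, was at 10.7, 17.8 and 12.0 TPM at day 0, at 29.8, 27.5 and 36.5 TPM at day 2 and at 11.6, 32.7 and 22.1 TPM at day 14. Day 2 lay above day 0, whereas day 14 overlapped both. The mean rose from 13.5 ± 3.8 to 31.3 ± 4.71 TPM at day 2 (SD, n = 3). This was a log2 change of 1.17 (SE 0.35, limma adjusted p = 0.0355). This call was lost on leaving out any of 6 libraries in turn: the limma adjusted p was 0.0877 and 0.0797 on omitting day 0 replicates 1 and 3, respectively. On omitting day 2 replicates 1 to 3 it was 0.0878, 0.0727 and 0.114, and for day 14 replicate 3 it was 0.0563. It was also lost under median-ratio scaling (0.201). At day 14 the mean was 22.1 ± 10.5 TPM and the log2 change 0.59 (SE 0.35, limma adjusted p = 0.217), which passed only without day 14 replicate 1 (0.0444) and with array weights (0.00535).

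The ratio of TUBA1A to TUBA1B, 2 neighbours with closely related products, was 0.0273, 0.0528 and 0.0226 in the day 0 libraries. At day 2 it was 0.497, 0.487 and 0.581, and at day 14 it was 0.142, 0.227 and 0.239. The 3 days did not overlap, with day 14 between the others (exact two-sided permutation test, p = 0.1 for each pair of days, the smallest possible).

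Among the beta-tubulins, TUBB, a widely expressed form, was at 958, 375 and 874 TPM at day 0. It was at 247, 246 and 220 TPM at day 2 and at 313, 364 and 365 TPM at day 14. No later library reached the lowest day 0 library, replicate 2, although day 14 came close to it. The mean fell from 736 ± 315 to 237 ± 15.3 TPM at day 2 (SD, n = 3), a log2 change of -1.52 (SE 0.33, limma adjusted p = 0.00949) that held under all 21 alternatives. At day 14 the mean was 347 ± 29.5 TPM and the log2 change -0.97 (SE 0.33, limma adjusted p = 0.049). That call stood at the threshold and was lost under 14 of 21 alternatives. On omitting day 0 replicates 1 and 3 the limma adjusted p was 0.122 and 0.12. For day 2 replicates 1 to 3 it was 0.0762, 0.073 and 0.0751, and for day 14 replicates 1 to 3 it was 0.128, 0.104 and 0.101. It was 0.0741 with the replicate block. With day 0 replicate 2 left out it was 0.000149 and the log2 change -1.40.

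TUBB4B, another abundant beta-tubulin, was at 708, 355 and 615 TPM at day 0, at 189, 175 and 155 TPM at day 2 and at 161, 275 and 207 TPM at day 14. Both later days lay below day 0 and overlapped each other. The mean was 559 ± 183, 173 ± 16.9 and 214 ± 57.6 TPM (SD, n = 3). It fell by 1.63 on the log2 scale at day 2 (SE 0.29, limma adjusted p = 0.00437) and by 1.36 at day 14 (SE 0.29, limma adjusted p = 0.00918). Both calls held under all 21 alternatives.

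TUBB6, a beta-tubulin of lower level in these cells, was at 196, 156 and 146 TPM at day 0, at 89.9, 89.0 and 77.7 TPM at day 2 and at 93.8, 95.5 and 106 TPM at day 14. The 3 days did not overlap. The mean was 166 ± 26.2, 85.6 ± 6.80 and 98.3 ± 6.38 TPM (SD, n = 3). It fell by 0.94 on the log2 scale at day 2 (SE 0.17, limma adjusted p = 0.00427) and by 0.74 at day 14 (SE 0.17, limma adjusted p = 0.011), and both calls held under all 21 alternatives.

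TUBB2A, a beta-tubulin with a near-identical neighbour, was at 34.3, 18.1 and 22.2 TPM at day 0, at 21.6, 20.5 and 19.2 TPM at day 2 and at 23.7, 34.9 and 19.6 TPM at day 14. All 3 days overlapped. The means were 24.9 ± 8.42, 20.4 ± 1.24 and 26.1 ± 7.91 TPM (SD, n = 3). The log2 change was -0.22 at day 2 (SE 0.28, limma adjusted p = 0.565) and 0.076 at day 14 (SE 0.28, limma adjusted p = 0.847). Its sign was not stable over the alternatives, which ran from -0.56 to 0.025 at day 2 and from -0.50 to 0.32 at day 14.

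The order of the levels differed between the days. At day 0 it ran ACTB, ACTG1, TUBA1B, TUBA1C, TUBB, TUBB4B, TUBB6, TUBA1A, TUBB2A and TUBA4A, from the highest mean down. The libraries overlapped between ACTB and ACTG1, between ACTG1 and TUBA1B, between TUBA1C and TUBB, and between TUBB and TUBB4B. At day 2 ACTG1 stood above ACTB with no overlap, and TUBA1A had moved up to the level of TUBB, with which it overlapped. TUBA1B and TUBA1C also overlapped at day 2, and TUBA4A stood above TUBB2A. At day 14 ACTG1 and ACTB overlapped again, TUBA1A overlapped TUBB4B and TUBB6, and TUBB2A overlapped TUBA4A. Among the tested genes of each library, ACTB ranked 4th, 41st and 4th at day 0, 50th, 86th and 37th at day 2, and 19th, 27th and 28th at day 14.

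The 10 genes together held 11728, 7756 and 11719 TPM in the day 0 libraries. They held 5773, 5234 and 6189 TPM at day 2 and 6968, 7169 and 6623 TPM at day 14. The share of the mRNA pool given to these genes was thus lower in every later library than in every day 0 library. The 4 alpha-tubulin genes summed to 2981 ± 239, 1109 ± 75.8 and 1483 ± 279 TPM at the 3 days (SD, n = 3). The 4 beta-tubulin genes summed to 1486 ± 518, 516 ± 39.4 and 686 ± 89.4 TPM. The 2 actins summed to 5934 ± 1752, 4106 ± 470 and 4751 ± 403 TPM, and here the day 0 library of replicate 2, at 3951 TPM, lay within the later range.

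Within the classes, the shares of both actins, TUBA1A and TUBA4A did not overlap between any pair of days. ACTB made up 63.3% ± 4.32 of the actin TPM at day 0, 35.7% ± 2.81 at day 2 and 48.7% ± 2.38 at day 14 (SD, n = 3). TUBA1A made up 1.94% ± 0.566 of the alpha-tubulin TPM at day 0, 20.5% ± 1.41 at day 2 and 10.6% ± 2.43 at day 14. TUBA4A made up 0.458% ± 0.145, 2.82% ± 0.408 and 1.44% ± 0.450. TUBA1B held 59.6% ± 9.46, 39.4% ± 1.28 and 52.7% ± 2.80, and TUBA1C held 38.0% ± 8.76, 37.2% ± 0.983 and 35.3% ± 1.65. Among the beta-tubulins, TUBB held 48.3% ± 5.93, 46.0% ± 0.796 and 50.9% ± 3.14, so that its share overlapped between day 0 and each later day. TUBB4B held 37.9% ± 1.16, 33.5% ± 0.914 and 30.8% ± 4.43. These shares are relative within a class and show unequal change only.

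**Figure D3:**
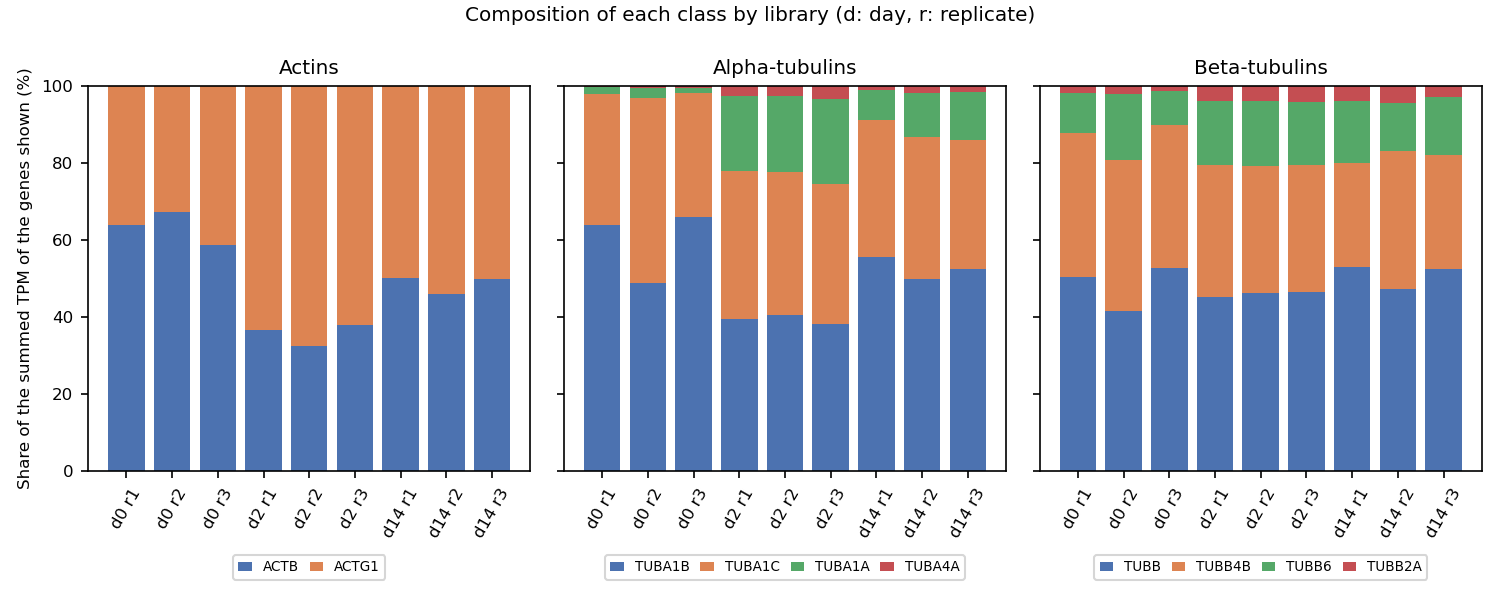
Stacked shares (%) of the summed TPM of the 2 actins, 4 alpha-tubulins and 4 beta-tubulins in each of the 9 libraries. ACTB holds 58.7% to 67.3% of the actin TPM at day 0 and 32.6% to 38.0% at day 2, and TUBA1A goes from 1.49% to 2.57% up to 19.6% to 22.2% of the alpha-tubulin TPM.

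Between day 14 and day 2, none of the 10 genes passed the limma test, against a background of 0.417% of all tested genes. At an unadjusted p under 0.05 there were 2, ACTB and TUBA1B. The log2 change from day 2 to day 14 was 0.66 for ACTB (SE 0.25, limma adjusted p = 0.213), 0.82 for TUBA1B (SE 0.20, 0.0991) and 0.55 for TUBB (SE 0.33, 0.419). The libraries of the 2 days did not overlap for 5 of the 10, against 43.8% of all tested genes. When day 0 replicate 2 was left out, which is part of neither day but adds to the shared estimate of the spread, 3 genes were called higher at day 14. These were ACTB (0.0215), TUBA1B (0.0085) and TUBB (0.013), with the same log2 changes. The same 3 were called in a fit of only the 2 days compared (limma adjusted p = 0.0434, 0.022 and 0.0302). The share of all tested genes called in these 2 fits is not reported here. Calls rose in other lists described below as well. Without day 0 replicate 2, 9 of 15 chaperonin and prefoldin genes and 10 of 21 actin nucleators were higher at day 14, and 0 of either lower. The 3 calls are therefore not particular to these genes. For TUBA1A the log2 change was -0.57 (limma adjusted p = 0.391), and for TUBA4A it was -0.58 (0.426).

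The table held 19 further actin and tubulin genes, of which 8 reached the level for testing. At day 2, 3 of the 8 were higher and 2 lower, against a background of 19.2% and 11.5%. At day 14, 3 were higher and 1 lower, against 27.5% and 6.72%, with 2 lower without day 0 replicate 2. Under median-ratio scaling, and also under quantile normalization, 1 was higher and 2 lower at day 14. Over all tested genes, 15.5% were higher and 17.9% lower under the first, and 17.1% and 17.4% under the second. TUBB2B, the neighbour of TUBB2A, rose from 13.8, 9.29 and 12.3 TPM at day 0 to 42.9, 39.0 and 36.3 TPM at day 2, and stood at 37.2, 46.0 and 30.97 TPM at day 14. Its log2 change was 1.67 at day 2 (SE 0.21, limma adjusted p = 0.00093) and 1.61 at day 14 (SE 0.21, limma adjusted p = 0.00124). The ratio of TUBB2B to TUBB2A was 0.402, 0.514 and 0.553 at day 0, 1.98, 1.90 and 1.90 at day 2, and 1.57, 1.32 and 1.58 at day 14. TUBB3, a beta-tubulin known from neurons and many tumours, was abundant and fell from 291 ± 62.1 to 152 ± 14.9 TPM at day 2 and 108 ± 3.17 TPM at day 14 (SD, n = 3). Its log2 changes were -0.91 (SE 0.19, limma adjusted p = 0.00841) and -1.40 (SE 0.19, limma adjusted p = 0.00146). It shared 49.0% of its words with a read-through transcript, AC092143.1.

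Epsilon-tubulin TUBE1, a centriole component, rose from 7.36 ± 0.772 to 16.5 ± 1.53 TPM at day 2 (log2 change 1.06, SE 0.17, limma adjusted p = 0.00267) and was at 16.3 ± 1.61 TPM at day 14 (1.05, SE 0.17, 0.00286). The day 14 call was lost under median-ratio scaling (0.119) and quantile normalization (0.0964). Gamma-tubulin TUBG1, which nucleates microtubules, was at 92.3, 31.2 and 102 TPM at day 0 and at 23.3, 26.9 and 19.4 TPM at day 2. Its log2 change at day 2 was -1.49 (SE 0.41, limma adjusted p = 0.025). Omitting day 0 replicate 1 or 3 ended this call (0.0679 and 0.0674), as did omitting any of the day 2 replicates (0.0703, 0.054 and 0.0845), and each of these left 1 of the 8 further genes lower. In the absence of day 0 replicate 2, where TUBG1 was low, the log2 change was -2.03.

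Most genes of the list for folding new actin and tubulin were called lower at day 2. Of its 15 genes, 8 encode subunits of the cytosolic chaperonin, 6 subunits of prefoldin, which hands actin and tubulin to it, and 1 the phosducin-like protein PDCL3. At day 2, 10 of them fell, 0 rose and 5 did not pass, against a background of 11.5% lower and 19.2% higher. The median log2 change of the 15 was -0.99, and -0.87 with day 0 replicate 2 left out. The number lower was 8 to 11 over the 21 alternatives. CCT5, a chaperonin subunit, went from 208, 203 and 202 TPM at day 0 to 57.6, 56.3 and 53.9 TPM at day 2 and 94.1, 78.8 and 80.1 TPM at day 14. It changed by -1.85 on the log2 scale at day 2 (SE 0.14, limma adjusted p = 0.00015) and -1.27 at day 14 (SE 0.14, limma adjusted p = 0.000709). PFDN6, a prefoldin subunit, fell from 82.3 ± 15.0 to 24.8 ± 5.79 TPM at day 2 (log2 change -1.70, SE 0.33, limma adjusted p = 0.00585). At day 14, 6 of the 15 were lower (median -0.66, or -0.31 with day 0 replicate 2 left out), CCT2 among them (282 ± 21.6 to 124 ± 10.3 TPM, log2 change -1.18, SE 0.15, limma adjusted p = 0.00102). The 1 subunit called higher at day 14, PFDN1 (0.65, limma adjusted p = 0.0489), was at the threshold. That count became 0 on leaving out any library other than day 0 replicates 1 and 2, PFDN1 then having a limma adjusted p of 0.0516 for day 0 replicate 3, of 0.0754, 0.0712 and 0.0794 for day 2 replicates 1 to 3, and of 0.143, 0.0997 and 0.0701 for day 14 replicates 1 to 3.

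Of the 8 genes for tubulin cofactors and for the degradation of tubulin mRNA, 2 were higher and 3 lower at day 2 and also at day 14. Over all tested genes, 19.2% were higher and 11.5% lower at day 2, and 27.5% and 6.72% at day 14. TBCD, a cofactor that assembles the tubulin dimer, fell from 54.3, 37.8 and 57.4 TPM at day 0 to 15.9, 18.6 and 18.5 TPM at day 2 (log2 change -1.43, SE 0.21, limma adjusted p = 0.00187). It was at 18.3, 18.6 and 24.2 TPM at day 14 (log2 change -1.24, SE 0.21, 0.00345). TBCEL, which is known to destabilise tubulin, rose from 4.41, 1.45 and 4.49 TPM at day 0 to 12.6, 13.1 and 13.8 TPM at day 2 (log2 change 1.76, SE 0.30, limma adjusted p = 0.0035). At day 14 it was at 16.7, 16.6 and 16.5 TPM (log2 change 2.07, SE 0.30, 0.00183). The day 14 count of 3 lower became 1 on leaving out any 1 of 5 libraries (day 2 replicates 1 to 3, day 14 replicates 2 and 3), whereas the TBCD call held under all 21 alternatives.

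For enzymes that modify the tubulin tails and proteins that bind microtubules, the counts depended on the libraries and the scaling. The background in the main fit was 19.2% higher and 11.5% lower at day 2, and 27.5% and 6.72% at day 14. Under median-ratio scaling it was 17.8% and 19.9% at day 2, and 15.5% and 17.9% at day 14. Under quantile normalization it was 18.3% and 19.9%, and 17.1% and 17.4%. No such share is reported here for fits with a library omitted. Of 14 tail-modifying enzymes tested, 2 were higher and 0 lower at both days, with a median log2 change of 0.24 at day 2 and 0.34 at day 14. TTLL1, a polyglutamylase, was at 2.05 ± 0.569, 5.25 ± 1.16 and 5.42 ± 0.938 TPM (SD, n = 3) and rose by 1.04 at day 2 (SE 0.22, limma adjusted p = 0.00904), a call lost under median-ratio scaling (0.0842). The other, AGTPBP1, which trims glutamates from the tail, missed the threshold on leaving out any 1 library of day 2 or day 14, with limma adjusted p from 0.0689 to 0.141 at day 2 and from 0.0523 to 0.094 at day 14. Leaving out day 0 replicate 2 gave 5 of the 14 lower at day 2 and 2 at day 14, with medians of -0.051 and 0.050. Median-ratio scaling gave 1 higher and 3 lower at day 2 and 0 higher and 1 lower at day 14, and quantile normalization 1 higher and 1 lower at day 2 and 0 either way at day 14. Of 20 microtubule binding proteins, 2 were higher and 2 lower at day 2 and 3 higher and 1 lower at day 14. With day 0 replicate 2 omitted these counts were 6 and 7 at day 2 and 6 and 6 at day 14. Median-ratio scaling gave 3 and 5 at day 2 and 2 and 5 at day 14, and quantile normalization 4 and 4 at day 2 and 3 and 5 at day 14. For day 0 replicate 1 omitted, the number higher was 4 at day 2 and 6 at day 14. On leaving out any 1 library of day 2 or day 14 it was 0 or 1 at day 2, and on leaving out any 1 of day 14 it was 0 or 1 at day 14. The 1 lower at day 14 was lost on leaving out any 1 library of day 2 or day 14, and the number lower at day 2 was 1 when day 2 replicate 3 was left out. STMN1, which sequesters tubulin dimers, fell from 265 ± 96.6 to 121 ± 3.39 TPM at day 2 (log2 change -1.06, SE 0.25, limma adjusted p = 0.013), a call that held under all 21 alternatives.

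On the actin side, the calls at day 2 were mostly lower in the main fit. Among all tested genes, 11.5% were called lower and 19.2% higher at day 2, and 6.72% and 27.5% at day 14. Of 19 proteins that bind, sever or cap actin, 3 were lower and 0 higher at day 2, and 3 lower and 2 higher at day 14. CFL1, the filament-severing protein cofilin, fell from 1398, 1129 and 1390 TPM at day 0 to 542, 533 and 599 TPM at day 2 (log2 change -1.22, SE 0.17, limma adjusted p = 0.00136). At day 14 it was at 820, 696 and 695 TPM (log2 change -0.82, SE 0.17, 0.00717), and both calls held under all 21 alternatives. Of 21 actin nucleators and their activators, 8 were lower and 0 higher at day 2, with 7 to 10 lower over the alternatives. At day 14, 5 were lower and 2 higher. ARPC5L, a subunit of the Arp2/3 complex that branches filaments, fell from 26.7, 37.3 and 27.0 TPM at day 0 to 9.19, 11.1 and 10.7 TPM at day 2 (log2 change -1.46, SE 0.20, limma adjusted p = 0.00149). It was at 18.4, 13.3 and 14.3 TPM at day 14 (log2 change -0.94, SE 0.20, 0.00944). The 8 lower of 21 stand against a background of 11.5%, although the median log2 change of the 21, 0.18, was close to that of all genes. With day 0 replicate 2 omitted that median was below 0, at -0.078.

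Several of these actin counts depended on the scaling or on single libraries. At day 2, 17.8% of all tested genes were higher and 19.9% lower under median-ratio scaling, and 18.3% and 19.9% under quantile normalization. At day 14 these shares were 15.5% and 17.9%, and 17.1% and 17.4%. Of the 19 proteins that bind, sever or cap actin, median-ratio scaling gave 7 lower and 0 higher at day 2 and 5 lower and 0 higher at day 14, and quantile normalization 4 lower and 3 higher at day 2 and 3 lower and 1 higher at day 14. Of the 21 nucleators, 4 were higher at each day under quantile normalization. For the 19 proteins that bind, sever or cap actin, omitting day 0 replicate 2 gave 8 lower and 2 higher at day 2, and omitting day 2 replicate 1 or 3 gave 1 lower. The number higher at day 14 was 0 or 1 when day 0 replicate 3, day 2 replicate 1 or 3 or any 1 library of day 14 was omitted. For the 21 nucleators, omitting day 0 replicate 2 gave 5 higher at day 2, and omitting another day 0 library gave 1. At day 14 it was 4 or 5 on omitting any 1 library of day 0 and 1 on omitting any 1 of day 14, and the number lower was 2 when day 14 replicate 3 was omitted. Of 30 crosslinking and contractile proteins, 2 were higher and 4 lower at day 2, and 3 higher and 0 lower at day 14. The background in the main fit was 19.2% higher and 11.5% lower at day 2, and 27.5% and 6.72% at day 14. Quantile normalization gave 3 of the 30 higher and 2 lower at day 2. Under median-ratio scaling the day 14 counts were 0 higher and 6 lower, and under quantile normalization 1 higher and 1 lower. Omitting day 0 replicate 2 gave counts in which 13 of the 30 were lower at day 2 and 9 at day 14. The share of all tested genes called with a library omitted is not reported here. The number lower at day 2 was 2 when day 0 replicate 1 or day 2 replicate 2 was omitted, and it was 1 and 0 for day 2 replicates 1 and 3. The number higher at day 2 was 1 on omitting any 1 library of day 2 or day 14. At day 14 it was 5 on omitting day 0 replicate 1 or 2, and 0 or 1 for day 0 replicate 3, day 2 replicate 1 or 3 and each library of day 14.

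**Figure D4:**
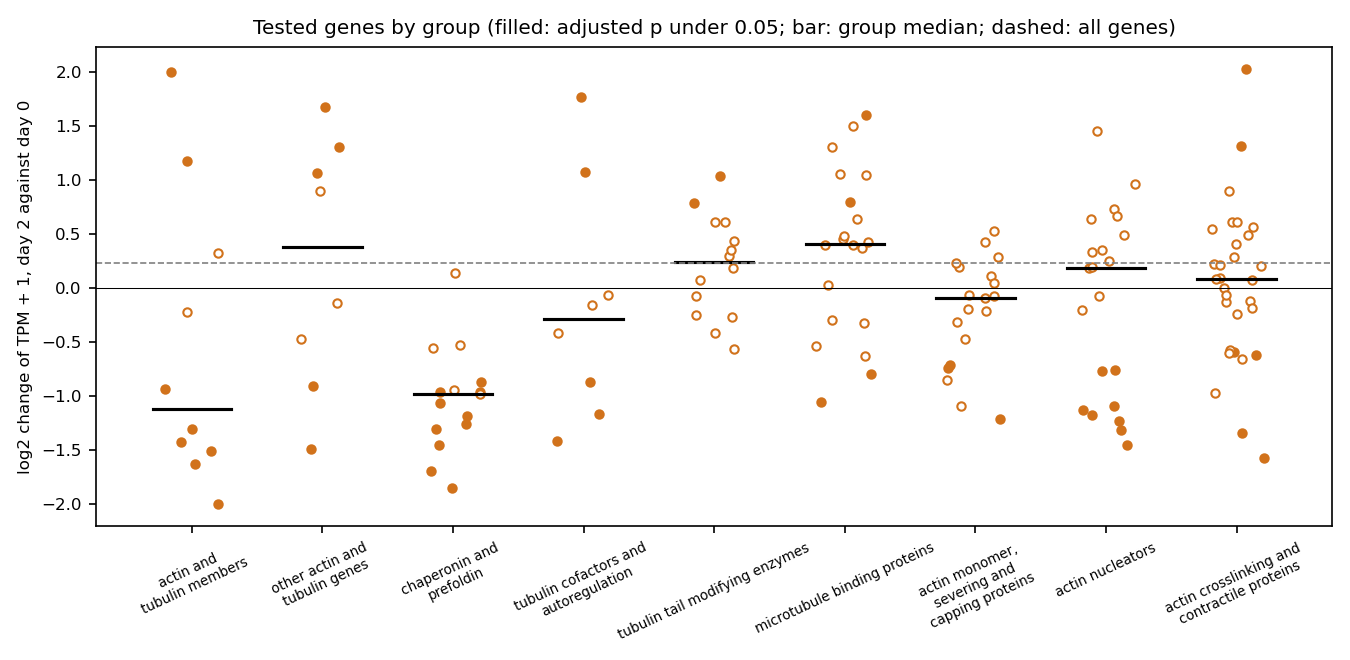
Log2 change of TPM + 1 at day 2 against day 0 of each tested gene, by group. Filled points had an adjusted p under 0.05, bars are group medians and the dashed line is the median of all genes, 0.23. The chaperonin and prefoldin group has its median at -0.99 and 10 of 15 genes called lower.

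SRF, the transcription factor that binds the CArG box, and its actin-sensing cofactors did not pass the test at either day in the main fit. SRF was at 17.9 ± 7.46, 19.9 ± 3.48 and 29.1 ± 9.11 TPM at the 3 days (SD, n = 3). Its log2 change was 0.22 at day 2 (SE 0.34, limma adjusted p = 0.649) and 0.72 at day 14 (SE 0.34, 0.13). The cofactor MRTFA, listed by its older symbol MKL1, was at 20.0 ± 11.3, 41.4 ± 2.98 and 35.6 ± 4.84 TPM. Its log2 change at day 2 was 1.20 (SE 0.42, limma adjusted p = 0.0586). On omitting day 0 replicates 2 and 3 in turn it was 0.64 (0.0107) and 1.57 (0.0249). MRTFA also passed at day 2 under median-ratio scaling (limma adjusted p = 0.0313), quantile normalization (0.0112) and without ribosomal protein genes (0.0448). It passed as well with a pseudocount of 5 (0.046) and with array weights (0.00528). The log2 change at day 14 was 0.99 (limma adjusted p = 0.0984). Without day 0 replicate 3 it was 1.35 (0.0362), and with array weights 0.41 (0.0463). MRTFB, listed as MKL2, was at 9.65 ± 5.49, 15.5 ± 0.911 and 14.8 ± 1.69 TPM, with log2 changes of 0.81 (limma adjusted p = 0.164) and 0.75 (0.183).

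As reference genes, the actins and tubulins ranged from steady to strongly variable. The coefficient of variation (SD over mean) of TPM over the 9 libraries was 20.1% for ACTG1, 26.7% for TUBB2A and 34.2% for TUBB6, below the median of 37.5% over all tested genes. For ACTB it was 43.8%, for TUBA4A 43.9%, for TUBA1C 52.5% and for TUBA1A 54.4%. TUBB, TUBA1B and TUBB4B had 62.8%, 63.2% and 65.8%. Leaving out day 0 replicate 2, the value of ACTG1 was 9.81% and that of ACTB 47.1%.

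Among 17 other genes in common use as references, 5 were higher and 4 lower at day 2, against a background of 19.2% higher and 11.5% lower, and 10 had a call at either day. The mitochondrial enzyme SDHA had a coefficient of variation of 11.3% and a mean of 65.7 ± 1.96, 73.9 ± 11.7 and 68.6 ± 7.35 TPM at the 3 days (SD, n = 3). The ribosomal protein RPLP0 followed at 15.0%, with 2703 ± 708, 2721 ± 263 and 2985 ± 255 TPM. RPLP0 was called higher at day 14 without day 0 replicate 2 (log2 change 0.38, limma adjusted p = 0.0324). The glycolytic genes PGK1, LDHA and GAPDH rose at day 2, when ACTB fell. PGK1 rose from 314, 212 and 286 TPM at day 0 to 1209, 1439 and 1304 TPM at day 2 (log2 change 2.29, SE 0.28, limma adjusted p = 0.000783), LDHA by 1.95 (SE 0.31, 0.0025) and GAPDH by 1.5 (SE 0.33, 0.01). Under quantile normalization the GAPDH call was lost (0.0823). The peptidyl-prolyl isomerase PPIA fell from 845, 1487 and 825 TPM to 415, 461 and 412 TPM at day 2 (log2 change -1.24, SE 0.24, limma adjusted p = 0.00571). The transferrin receptor TFRC fell by 2.09 (SE 0.35, 0.00336) and HPRT1, a purine salvage enzyme, by 1.31 (SE 0.24, 0.00473). YWHAZ rose by 0.81 (SE 0.22, 0.0258), a call lost on omitting any day 2 library (0.0732, 0.0674 and 0.0871) and under median-ratio scaling (0.0856).

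The remaining reference genes did not pass at day 2. These were TBP (log2 change -0.20), IPO8 (-0.055), B2M (-0.63), RPL13A (0.087), POLR2A (1.44) and GUSB (-0.37), beside SDHA (0.16) and RPLP0 (0.036). Without day 0 replicate 2, TBP, POLR2A and RPL13A passed at day 2 (limma adjusted p = 0.0077, 0.00619 and 0.0183). With all libraries kept, TBP passed there under median-ratio scaling (limma adjusted p = 0.0123) and quantile normalization (0.0284). POLR2A likewise passed under both (0.0428 and 0.0263), and B2M under quantile normalization (0.0436). Leaving out day 0 replicate 1 brought in B2M (0.0336) and POLR2A (0.0425), and leaving out day 0 replicate 3 POLR2A (0.0448). At day 14, 4 of the 17 were higher and 4 lower, against a background of 27.5% and 6.72%. Under median-ratio scaling 0 were higher and 5 lower, against 15.5% and 17.9% of all tested genes. Omitting day 0 replicate 2 gave 7 higher, and omitting day 14 replicate 2 or 3 gave 1 or 2 higher and 2 lower. The share of all tested genes called with these libraries omitted is not reported here.

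ACTB fell and GAPDH rose at day 2. The ratio of GAPDH to ACTB, 2 genes in wide use as references, was 0.539, 0.473 and 0.565 in the day 0 libraries. It was 3.51, 4.83 and 2.99 at day 2 and 0.687, 1.57 and 1.53 at day 14. The 3 days did not overlap, and the log2 difference between day 2 and day 0 was 2.82 (exact two-sided permutation test, p = 0.1, the smallest possible).

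**Figure D5:**
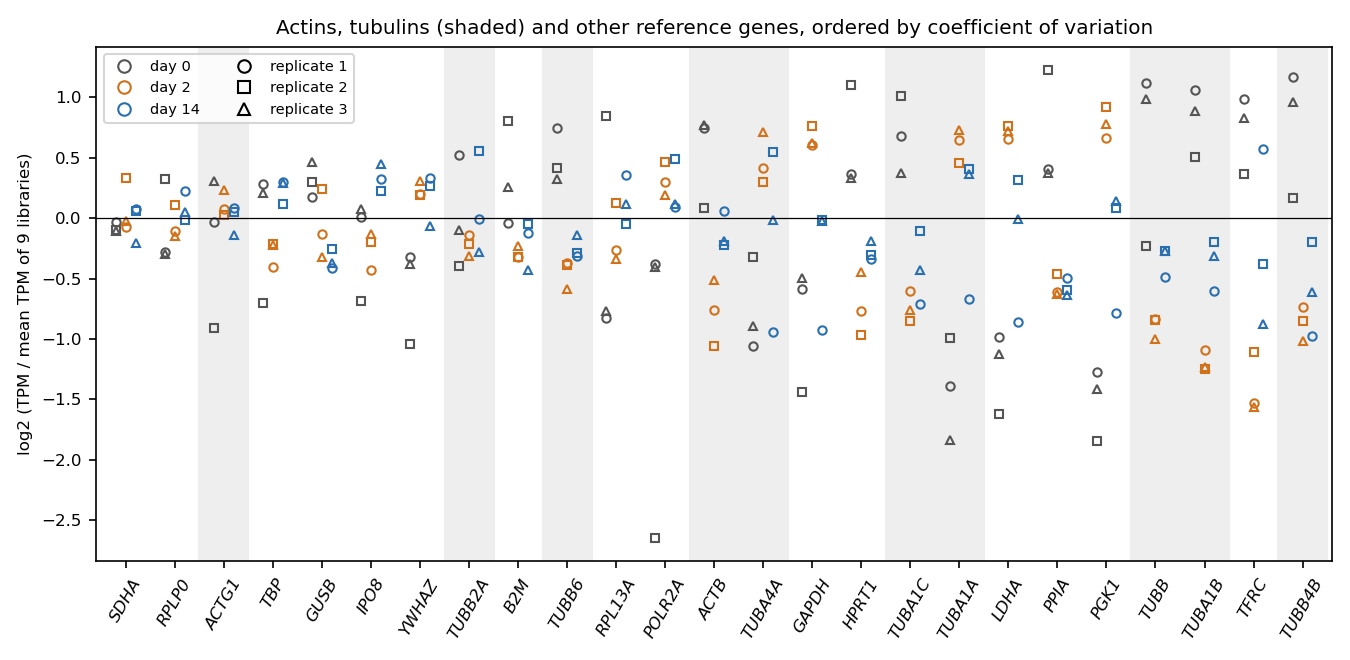
Log2 of TPM over the gene's mean of 9 libraries, for the 10 actin and tubulin genes (shaded) and of other reference genes, ordered from left to right by coefficient of variation. SDHA, at 11.3%, is at the left end and TUBB4B, at 65.8%, at the right end, and the square of day 0 (replicate 2) often lies away from the other day 0 symbols.

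The same 9 libraries share the day effect and the scaling. Over them, the genes outside the 10 whose log2(TPM + 1) followed a member most closely were found. For ACTB these were CEP57L1 (Pearson r = 0.988), ATG7 (0.984), PNPT1 (0.980), PAICS (0.976) and VKORC1L1 (0.974). CEP57L1 went from 8.76, 6.78 and 8.99 TPM at day 0 to 4.57, 3.998 and 5.55 TPM at day 2 and 6.70, 6.39 and 5.69 TPM at day 14. For TUBB they were STRIP2 (0.992), VCP (0.991), FANCA (0.989), PRIM2 (0.987) and NUP205 (0.987). VCP, an abundant ATPase, was at 269, 139 and 257 TPM at day 0, at 106, 120 and 106 TPM at day 2 and at 134, 140 and 135 TPM at day 14. FANCA and PRIM2, which act in DNA repair and replication, were at 18.3, 5.97 and 16.8 TPM and at 22.6, 9.52 and 19.7 TPM at day 0. For TUBA4A they were FSTL3 (0.975), ZBED5 (0.969), ARL14 (0.968), TPD52 (0.951) and CFAP36 (0.941). ARL14 was at 0.901, 1.59 and 1.63 TPM at day 0, at 4.90, 5.91 and 9.02 TPM at day 2 and at 1.07, 6.80 and 4.17 TPM at day 14, with day 14 replicate 1 low as in TUBA4A.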

How the data were processed

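RNA sequencing of 9 PANC-1 samples was used as 1 table of TPM per gene symbol. The authors deposited these TPM values; Salmon and the genome build hg19 are named in the submitters' processing notes. The Salmon version, transcript annotation and read depth are not given in the sources used here, and TPM keeps no depth. RNA was extracted with a column kit and libraries were made commercially, per the labels' protocols. Columns were matched to samples by day and replicate number, and groups were taken from the titles. Identical nonzero values made up 0% of the genes in every pair of libraries.

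Values were analysed as log2(TPM + 1), a scale on which changes of low genes appear smaller. A gene was tested if 3 or more of the 9 libraries had 1 TPM or more, which kept 14144 of 27800. Each pair of days was compared with limma 3.58.1 (R 4.3.3) with a mean-variance trend, all 9 libraries sharing the fit; tests were two-sided and p-values were adjusted by Benjamini-Hochberg over all tested genes at 0.05. The fit was tested on simulated data. A gene that did not pass is not thereby shown to be unchanged. Ratios of genes were tested on the log2 scale by exact permutation over libraries (Python 3.11.15, numpy 2.4.6, pandas 2.3.3). Figures used matplotlib 3.10.9. Shared 31-base words were counted in GENCODE v29 transcripts, and upstream sequences were taken from RefSeq (GRCh38.p14), a build other than that of the table, with genes matched by symbol.

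The members and lists were chosen with earlier results of these data known. Named genes were the 10 members, the other reference genes, SRF and its cofactors, and per list and comparison up to 2 called rises and 2 called falls, largest first, with a mean of at least 5 TPM in the higher day, together with the 5 genes most correlated with ACTB, TUBB and TUBA4A. Not all genes the rule covers are printed, and some of the 17 other reference genes are counted but not reported here. Replicate numbers recur across days but did not pair the libraries. The 21 alternatives were pseudocounts of 0.1 and 5; testing every gene, or those averaging 5 TPM or more; scaling by median ratio, by quantiles, or after dropping ribosomal protein genes; 4 changes to the limma model (no trend, robust moderation, array weights, a replicate block); a fit per pair of days; and the omission of each of the 9 libraries in turn.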

Additional observations from a re-analysis of the deposited data

How the results depend on the processing

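Of 630 values of the 10 genes (3 comparisons under 21 alternatives), 591 kept their direction and their side of the threshold. A call was lost in 24 and gained in 15, and none reversed a call. The number of the 10 called higher at day 2 against day 0 was 1 without the filter, under median-ratio scaling and under quantile normalization, and 1 to 2 on leaving out libraries. At day 14 against day 0 it was 0 under median-ratio scaling, 2 with array weights and 1 to 2 on leaving out libraries. Between day 14 and day 2 it was 3 with array weights, 3 in a fit of only the 2 days compared and 0 to 3 on leaving out libraries. ACTB at day 14 against day 0 passed with array weights (limma adjusted p = 0.000274), under median-ratio scaling (0.00928) and without ribosomal protein genes (0.0433). With array weights 8 of the 17 other reference genes were lower at day 2 and 7 higher at day 14, and 17 of the 30 crosslinking and contractile proteins were lower at day 2. Microtubule binding proteins at day 2 went from 2 higher and 2 lower to 7 and 7 with array weights. The share of all tested genes called in that fit is not reported here, so these counts are not particular to the lists. Among other named genes, 2 rises at day 14 changed sign under median-ratio scaling, CAPZA2 to -0.067 and MYL12A to -0.028. The cause of these changes was not tested. Among 234 values of class sums and shares, 15 moved beyond 1 SD.

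With the replicate block, 4 of the 10 genes were lower at day 14 against day 0, TUBB having a limma adjusted p of 0.0741. The replicate numbers did not pair the libraries: correlations of deviations between same-numbered libraries ran from -0.079 to 0.015, and 0 of 9 libraries matched its own number best. With the block, 2 of the 17 other reference genes were higher and 2 lower at day 14. TPM keeps no depth, so the precision of low values is unknown.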

Other observations

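Of 6 epithelial tumour cell markers tested, 3 were called lower at day 2 and 4 at day 14 by limma, against a background of 11.5% and 6.72%. Leaving out day 0 replicate 2, these counts were 4 and 5, and 1 was higher at each day. The share of all tested genes called in that fit is not reported here. The intermediate filament gene VIM, which encodes vimentin, was at 2068 ± 687, 1682 ± 66.2 and 943 ± 87.0 TPM at the 3 days (SD, n = 3), and KRT18 at 1008 ± 74.5, 363 ± 25.8 and 504 ± 53.3 TPM. KRT19 was at 694 ± 212, 335 ± 69.1 and 189 ± 13.8 TPM. Neither of the epithelial genes CDH1 (17.2 ± 9.72, 32.4 ± 4.32 and 10.6 ± 2.03 TPM) and KRT7 (5.74 ± 1.73, 7.60 ± 0.837 and 7.61 ± 1.70 TPM) passed the test at day 2 or day 14. SYT1, a synaptic vesicle protein and the 1 neuron marker tested, was at 5.50 ± 2.92, 19.5 ± 2.46 and 39.5 ± 2.24 TPM and was called higher at both days.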
